A study of Mus musculus with 8 samples.

Results

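The NF-kappaB subunit genes are a family of 5 genes, Nfkb1, Nfkb2, Rel, Rela and Relb, and were taken as every probe set that the array's annotation assigns to exactly 1 gene with one of these symbols. Of the 5 genes, 4 had such a probe set, 1 each, and all 4 were among the 13356 genes tested. The probe sets were 10463599 for Nfkb2, 10384725 for Rel, 10460631 for Rela and 10560575 for Relb. Nfkb1 was not analysed here, since no probe set used here carried its name. The signals came from Affymetrix arrays of dendritic cell (DC) progenitors sorted from mouse bone marrow. Zeb2hi common DC progenitors (CDPs; 3 arrays) and Zeb2low CDPs (3 arrays) are fractions of the marrow progenitor that gives rise to classical and plasmacytoid DCs, named for their level of a Zeb2 reporter. Pre-CD8 DCs (2 arrays) are committed precursors of the CD8a+ classical DC, or cDC1. All 3 groups, with no other strain or treatment named, came from mice heterozygous for a fusion of Zeb2 with GFP, so that no group lacks the reporter allele; the labels give neither ages nor numbers of mice.

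NF-kappaB factors are dimers of Rel-domain proteins that IkB proteins hold in the cytoplasm until IkB kinase marks the inhibitor for destruction. The canonical branch releases dimers of RelA or c-Rel with the Nfkb1 product. The non-canonical branch, driven by the kinase NIK, trims the Nfkb2 precursor so that its dimers with RelB enter the nucleus. RelB is known for its part in the development and maturation of DCs, and c-Rel for IL-12 production by them. Several of these genes are known targets of the family itself.

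Promoters are shown for the members with a sequence in the reference tables, since the family is known to act on its own genes. RefSeq windows of build GRCm38.p6, from 250 bases before to 50 after an annotated start and written 5′ to 3′ in the gene's direction, were found for Nfkb2, Rel and Rela, with 3 starts for Nfkb2; Nfkb1 and Relb had no entry. Capitals mark matches to the kappaB consensus, the 10-base site that NF-kappaB dimers bind, searched on both strands. The windows shown are chr19:46304487-46304786 (plus strand) and chr19:46305445-46305744 (plus strand) for the first and the second Nfkb2 start, chr11:23770920-23771219 (minus strand) for Rel and chr19:5637291-5637590 (plus strand) for Rela.
Nfkb2, first start: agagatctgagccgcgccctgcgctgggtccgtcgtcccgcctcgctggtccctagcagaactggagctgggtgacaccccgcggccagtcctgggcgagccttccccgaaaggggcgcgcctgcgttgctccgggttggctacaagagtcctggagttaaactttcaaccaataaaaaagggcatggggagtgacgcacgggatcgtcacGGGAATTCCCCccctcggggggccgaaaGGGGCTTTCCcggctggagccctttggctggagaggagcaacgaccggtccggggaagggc
Nfkb2, second start: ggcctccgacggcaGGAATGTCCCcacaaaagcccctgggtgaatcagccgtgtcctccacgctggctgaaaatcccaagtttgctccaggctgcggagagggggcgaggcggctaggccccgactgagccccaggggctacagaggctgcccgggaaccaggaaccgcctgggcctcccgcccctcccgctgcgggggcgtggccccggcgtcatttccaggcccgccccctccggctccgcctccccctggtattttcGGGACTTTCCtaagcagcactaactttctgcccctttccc
Rel: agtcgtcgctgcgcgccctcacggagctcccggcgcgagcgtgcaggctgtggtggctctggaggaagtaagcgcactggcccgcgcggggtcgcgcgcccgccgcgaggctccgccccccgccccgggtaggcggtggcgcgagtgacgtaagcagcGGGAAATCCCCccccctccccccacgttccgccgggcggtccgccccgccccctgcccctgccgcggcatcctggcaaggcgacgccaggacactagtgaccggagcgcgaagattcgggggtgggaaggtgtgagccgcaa
Rela: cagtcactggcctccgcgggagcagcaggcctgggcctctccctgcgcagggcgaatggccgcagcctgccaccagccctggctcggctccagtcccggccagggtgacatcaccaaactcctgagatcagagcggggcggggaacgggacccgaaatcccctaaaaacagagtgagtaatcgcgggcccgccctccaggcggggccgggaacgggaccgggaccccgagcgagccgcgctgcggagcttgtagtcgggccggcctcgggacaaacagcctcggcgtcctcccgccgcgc

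The first Nfkb2 window held 2 stretches of matches. One is GGGAATTCCC from base -39 to -30, a palindrome that matches on both strands and overlaps a second match 1 base downstream, and the other is GGGGCTTTCC from base -11 to -2, counted from the start. The second Nfkb2 window held GGAATGTCCC from base -236 to -227 and GGGACTTTCC from base 11 to 20 after the start. The third Nfkb2 window overlaps the second and held that same GGGACTTTCC site. The Rel window held GGGAAATCCC from base -92 to -83, again a match on both strands with an overlapping one. The Rela window held 0 matches, which says only that these letters are not in it. At least 1 match occurred in 8.46% of 32817 promoter windows of the same length. A match in the sequence is a description and not a measured binding site.

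**Figure D1:**
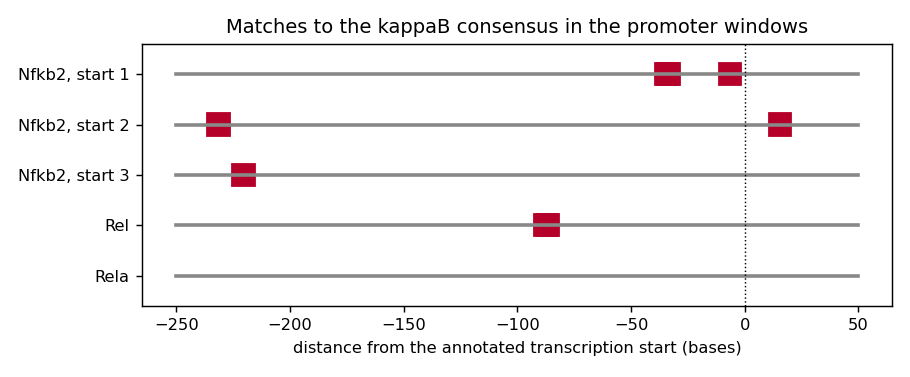
Matches to the kappaB consensus (red boxes, to scale) by distance in bases from the annotated transcription start in the 5 RefSeq windows of the members. Nfkb2 starts 1 and 2 have 2 stretches each, Nfkb2 start 3 and Rel have 1 each, and Rela has 0.

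The labelled identities were checked against marker genes. Of 9 cDC1 genes tested, 7 were higher in pre-CD8 DCs than in Zeb2hi CDPs, among them Batf3, Clec9a and Wdfy4, and 0 were lower. Some cDC1 genes differed between pre-CD8 DC arrays 1 and 2: Xcr1 read 7.57 and 5.03, Cadm1 6.73 and 4.91, and Cd8a 6.61 and 5.44. On array 2 Cadm1 and Cd8a lay within the Zeb2low arrays (4.99, 4.75 and 4.92 for Cadm1, and 5.57, 5.32 and 5.16 for Cd8a). Batf3, Id2 and Tlr3 were instead higher on array 2 than on array 1. Flt3, the receptor that marks DC progenitors, lay between 9.07 and 9.63 (log2 signal) on all 8 arrays. Of 7 stem and progenitor genes tested, 4 were lower (Cd34, Csf1r, Meis1 and Hoxa9) and 1, Kit, was higher in pre-CD8 DCs than in Zeb2hi CDPs, so that the list did not go one way. Cd34 had a mean of 10.25 in Zeb2hi CDPs, 8.80 in Zeb2low CDPs and 6.66 in pre-CD8 DCs, whereas Kit had 7.87, 8.29 and 8.89. Between Zeb2low and Zeb2hi CDPs, 4 of 7 plasmacytoid DC genes were higher (Siglech, Ly6d, Ccr9 and Spib; median of the list 0.90) and 0 lower, and 3 of 4 T, NK and innate lymphoid genes were higher (Thy1, Il7r and Cd3e; median 1.08) and 0 lower. Against Zeb2hi CDPs, pre-CD8 DCs had 2 of the 7 plasmacytoid DC genes higher and 1 lower, and 2 of the 4 lymphoid genes higher. Of 6 genes of the other classical DC, cDC2, 3 were higher there (Cd209a, Cd7 and Irf4) and 2 lower (Tmem176a and Tmem176b). Of 8 monocyte and macrophage genes 1 was higher and 1 lower, and of 4 erythroid and megakaryocyte genes 1 was higher and 0 lower. Transcripts of mature neutrophils were present throughout: S100a8 lay between 12.03 and 13.13 on the 8 arrays. The sum of log2 signal over 12 mature neutrophil genes ranged from 97.2 to 117.5 in Zeb2hi CDPs, from 118.5 to 139.9 in Zeb2low CDPs and from 118.1 to 143.7 in pre-CD8 DCs, and 4 of the 12 were called higher in Zeb2low than in Zeb2hi CDPs. Each pre-CD8 DC array correlated more with a Zeb2low array (r = 0.958 and 0.966 across genes) than with the other pre-CD8 DC array (r = 0.937).

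Relb was the member with a difference past the test. Its log2 signal was 4.35, 4.46 and 4.80 on the 3 Zeb2hi arrays, 4.77, 4.95 and 5.07 on the Zeb2low arrays, and 5.27 and 5.33 on the pre-CD8 DC arrays. Both pre-CD8 DC arrays lay above all 6 CDP arrays, and the highest Zeb2hi array lay just above the lowest Zeb2low array. Relb was 1.70-fold higher in pre-CD8 DCs than in Zeb2hi CDPs (log2 difference 0.77 ± 0.18, SE, 95% confidence interval 0.36 to 1.18, limma with Benjamini-Hochberg adjustment over all genes, adjusted p of 0.0214). It was thus 1 of 4 members called higher in that comparison, where 6.51% of all genes tested were called higher and 17.6% were called in either direction. The 2 steps between these groups did not pass: Zeb2low over Zeb2hi CDPs gave 0.39 ± 0.16 (adjusted p of 0.132), and pre-CD8 DCs over Zeb2low CDPs gave 0.37 ± 0.18 (adjusted p of 0.414). A moderated F test over the 3 groups passed for Relb (F = 9.15, adjusted p of 0.0437), as it did for 17.9% of all genes.

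The Relb call rests on few arrays and on a low signal. Its signal was above the 40th percentile of the array's own values on 7 of 8 arrays, Zeb2hi array 1 being the exception. Leaving out Zeb2hi array 1 (0.67, adjusted p of 0.0514), Zeb2hi array 2 (0.73, adjusted p of 0.0777), pre-CD8 DC array 1 (0.80, adjusted p of 0.0735) or pre-CD8 DC array 2 (0.73, adjusted p of 0.0753) each ended the call in limma, and a stricter filter on low signal removed the gene from the test. The F test passed in 1 of 8 fits that each omitted an array, the one that omitted Zeb2low array 1 (adjusted p of 0.0398), and its adjusted p in the others reached 0.154. In all 8 fits without an array Relb was higher in pre-CD8 DCs than in Zeb2hi CDPs, by 0.67 to 0.90. Fewer cells that carry a transcript and less of it per cell cannot be told apart in such bulk samples.

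**Figure D2:**
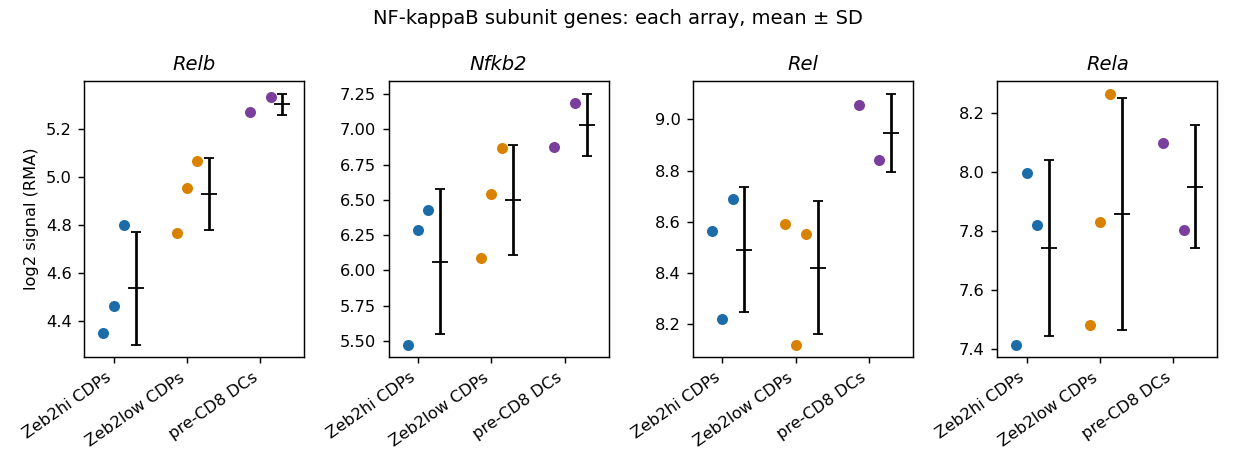
Log2 signal (vertical axes, which differ between panels and do not start at 0) of the 4 measured NF-kappaB subunit genes on each array; points are arrays, and bars give the mean ± SD of 3 Zeb2hi CDP, 3 Zeb2low CDP and 2 pre-CD8 DC arrays. For Relb, Nfkb2 and Rel both pre-CD8 DC arrays lie above all CDP arrays; for Rela the groups overlap.

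Nfkb2, which encodes the precursor that pairs with RelB in the non-canonical branch, had the same order of group means as Relb, with no difference past the test. Its 3 promoter windows, of which 2 overlap, held the most kappaB matches. Rel and Rela had only 1 window each, and Relb had none to search, so members cannot be ranked by matches. The log2 signal of Nfkb2 was 5.47, 6.28 and 6.43 on the Zeb2hi arrays, 6.09, 6.54 and 6.87 on the Zeb2low arrays, and 6.87 and 7.19 on the pre-CD8 DC arrays. The CDP groups overlapped, and pre-CD8 DC array 1 lay just above Zeb2low array 3 (6.8737 against 6.8701). Nfkb2 differed by 0.97 ± 0.32 between pre-CD8 DCs and Zeb2hi CDPs (SE, 95% confidence interval 0.25 to 1.69, limma adjusted p of 0.0689). The difference was 0.44 ± 0.29 from Zeb2hi to Zeb2low CDPs (adjusted p of 0.308) and 0.53 ± 0.32 between pre-CD8 DCs and Zeb2low CDPs (adjusted p of 0.509). When the 6 CDP arrays were paired by replicate number, a pairing taken from the values as described with the processing, the Nfkb2 rise from Zeb2hi to Zeb2low CDPs passed (0.44, adjusted p of 0.0454), and 1 of 4 members was called where 30.5% of all genes were.

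Rel, which encodes c-Rel, had similar signals in both CDP groups and the highest ones in pre-CD8 DCs. Its promoter window held 1 stretch of kappaB matches. Its log2 signal was 8.56, 8.22 and 8.69 on the Zeb2hi arrays, 8.59, 8.12 and 8.55 on the Zeb2low arrays, and 9.06 and 8.84 on the pre-CD8 DC arrays. The CDP groups overlapped almost fully, and the pre-CD8 DC arrays lay above both. No Rel difference passed in limma: pre-CD8 DCs stood 0.53 ± 0.21 above Zeb2low CDPs (adjusted p of 0.337) and 0.46 ± 0.21 above Zeb2hi CDPs (adjusted p of 0.175). Between the CDP groups the difference was -0.07 ± 0.19 (95% confidence interval -0.50 to 0.36, adjusted p of 0.808), and its sign turned after quantile normalization (0.15).

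Rela, which encodes the canonical subunit p65 and had 0 matches in its window, had overlapping signals in the 3 groups. Its log2 signal was 7.42, 7.997 and 7.82 on the Zeb2hi arrays, 7.48, 7.83 and 8.27 on the Zeb2low arrays, and 8.10 and 7.80 on the pre-CD8 DC arrays. The spread within the Zeb2low arrays alone (SD 0.39) exceeded every difference between group means. Pre-CD8 DCs stood 0.21 ± 0.26 above Zeb2hi CDPs (95% confidence interval -0.38 to 0.80, limma adjusted p of 0.631), an interval that holds both 0 and the Relb difference. Zeb2low CDPs differed from Zeb2hi CDPs by 0.11 ± 0.23 (adjusted p of 0.747), with the opposite sign when arrays were centred on their medians (-0.05). Pre-CD8 DCs differed from Zeb2low CDPs by 0.09 ± 0.26 (adjusted p of 0.904), with the opposite sign after quantile normalization (-0.00499) or with array weights (-0.06).

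**Figure D3:**
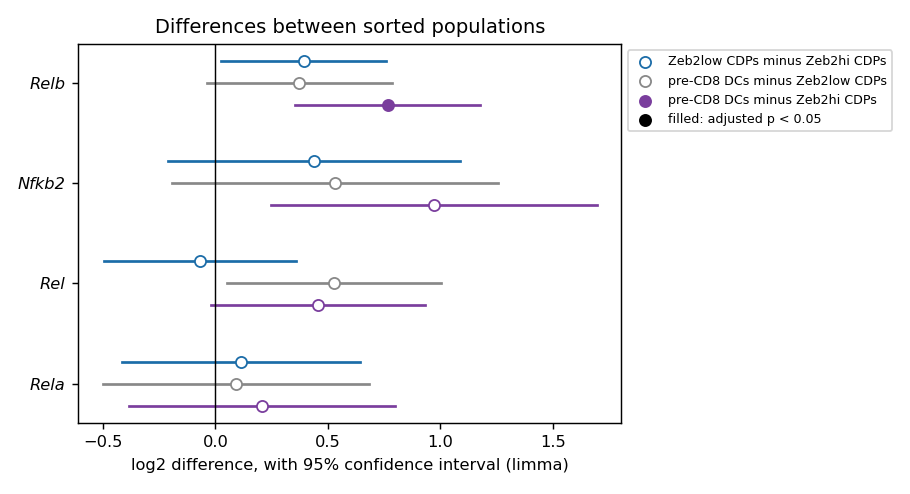
Log2 differences with 95% confidence intervals (horizontal axis) of the 4 genes in each of 3 comparisons between sorted populations; a filled point marks adjusted p below 0.05. The filled point is Relb in pre-CD8 DCs against Zeb2hi CDPs, at 0.77, and all 3 Rela intervals hold 0.

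By comparison, 0 of 4 members passed limma's adjusted test between Zeb2low and Zeb2hi CDPs, where 14.8% of all genes did (4.5% higher, 10.3% lower), and 1 (Relb) had an unadjusted p below 0.05. Between pre-CD8 DCs and Zeb2low CDPs 0 of 4 passed, where 0.554% of all genes did (0.337% higher, 0.217% lower), and 1 (Rel) had an unadjusted p below 0.05. The 2 CDP groups overlapped for all 4 members, whereas 20.2% of all genes lay higher and 21.5% lower without overlap. The arrays of pre-CD8 DCs lay above those of Zeb2low CDPs without overlap for 3 of 4 members, against 12.4% of all genes that lay higher and 15.4% that lay lower. Against Zeb2hi CDPs 3 of 4 did so, beside 21.4% of all genes higher and 27.1% lower, and 11.1% of all genes were called lower. The comparisons share arrays, so these counts are not independent. The median difference of the 4 members was 0.25 from Zeb2hi to Zeb2low CDPs, 0.45 from Zeb2low CDPs to pre-CD8 DCs and 0.61 from Zeb2hi CDPs to pre-CD8 DCs, against 0.03, -0.03 and -0.02 over all genes.

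Immediate early genes, which respond to cell handling, were measured beside these members. Of 12 such genes 7 lay higher without overlap in pre-CD8 DCs than in Zeb2low CDPs, with a median difference of 0.92, and 0 passed limma's test (3 had an unadjusted p below 0.05). Against Zeb2hi CDPs 7 of 12 lay higher without overlap, and 1, Zfp36, which encodes an RNA-binding inhibitor of cytokine transcripts, was called (1.10 ± 0.24, adjusted p of 0.0169). Their summed log2 signal was 94.5 to 112.3 in Zeb2hi CDPs, 93.9 to 109.2 in Zeb2low CDPs and 114.1 to 116.8 in pre-CD8 DCs. Their part in the differences of the NF-kappaB genes was not tested, nor was that of the neutrophil transcripts, whose sums overlapped between Zeb2low CDPs and pre-CD8 DCs but lay lower in Zeb2hi CDPs.

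The signals of Nfkb2 and Relb ran together over the 8 arrays (Pearson r = 0.916, Spearman rho = 0.976). Without the 2 arrays farthest from the Nfkb2 median r was 0.820, and for deviations from the group means it was 0.851. In each of the 3 groups the array lowest in Nfkb2 was also lowest in Relb. The arrays share the sort and the amplification of each sample, and r is given as a description. Nfkb2 and Rela had r = 0.718 (0.847 without the 2 arrays farthest from the median of the first gene, deviations from group means 0.781). Rela with Relb had r = 0.511, which rested on such arrays (0.174 without them, deviations 0.586). Rel with Relb had r = 0.550 (0.691 without 2 arrays, deviations 0.170), and Nfkb2 with Rel had r = 0.359 (0.409 without 2 arrays, deviations -0.196). Rel with Rela had r = 0.083, which turned negative without 2 arrays (-0.239, deviations -0.122).

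**Figure D4:**
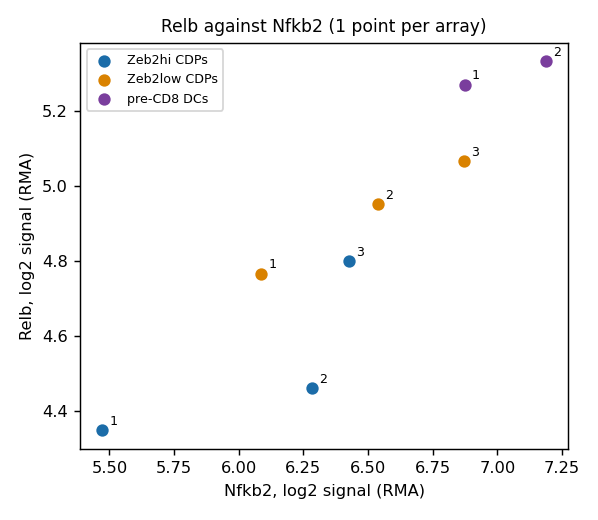
Relb against Nfkb2 log2 signal, 1 point per array, coloured by group and labelled with the replicate number of its group. The points run from Zeb2hi array 1 (5.47 and 4.35) to pre-CD8 DC array 2 (7.19 and 5.33).

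Among the 13355 other genes tested, those with the highest Pearson r to each member over the 8 arrays were listed as a description. For Relb these were Trpv2, a cation channel gene (r = 0.978), Fbrsl1 (0.972) and Mrtfa, a serum response factor coactivator (0.971). For Nfkb2 they were Rnf213 (0.976), Limd1 (0.975) and Kit, the stem cell factor receptor (0.969). For Rel they were Cep120 (0.944), Amacr (0.902) and Rubcnl (0.891). For Rela they were Pip4k2c (0.955), Dok1 (0.937) and Sp1 (0.930). The 3 genes nearest Relb and the 3 nearest Nfkb2 had group means in the same order as these members, lowest in Zeb2hi CDPs and highest in pre-CD8 DCs. This order largely follows from choosing them by r over the same 8 arrays. Mrtfa, for example, had means of 6.80, 7.43 and 8.06, and Kit of 7.87, 8.29 and 8.89.

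A total of 94 other genes of the pathway were listed by role, of which 77 were tested. The lists were chosen with earlier results of these data known, so the shares called are a description. Of these 77, 16 were higher and 2 lower in pre-CD8 DCs than in Zeb2hi CDPs (23.4% called, against 17.6% of all genes). Leaving out Zeb2hi array 1, 2 or 3 brought the 16 to 10 each time. Between Zeb2low and Zeb2hi CDPs 9 were higher and 1 lower (13% called, against 14.8%). With the CDP arrays paired, 19 were higher and 8 lower, where 30.5% of all genes were called. With arrays centred on their medians the counts were 6 and 6, where 2604 of 13356 genes were called. Without Zeb2hi array 2 or 3 or Zeb2low array 2 the 9 became 5, 4 and 5. Between pre-CD8 DCs and Zeb2low CDPs 3 were higher and 0 lower (3.9% called, against 0.554%), namely Tlr3, Cd83 and Cd86, and in fits without an array 1 or 2 were.

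Of the 14 receptors of the pathway 12 were tested. They are the proteins that ligands or microbial products engage at the head of the pathway. In pre-CD8 DCs 5 of 12 were higher than in Zeb2hi CDPs and 0 lower, against 6.51% of all genes higher and 11.1% lower. Tlr3, also a cDC1 marker and the sensor of double-stranded RNA, differed by 5.28 ± 0.15 (limma adjusted p of 1.61e-06), and was the receptor that passed between pre-CD8 DCs and Zeb2low CDPs too (2.06 ± 0.15, adjusted p of 0.00134). Tlr4, the lipopolysaccharide receptor, had 4.56, 4.13 and 4.22 on the Zeb2hi arrays, 5.58, 6.16 and 5.10 on the Zeb2low arrays and 6.87 and 5.94 on the pre-CD8 DC arrays, without overlap between the first group and the last (2.10 ± 0.35, adjusted p of 0.00538). On Zeb2hi arrays 2 and 3 Tlr4 lay below the array's own 40th percentile. Mature neutrophil genes were also higher in pre-CD8 DCs than in Zeb2hi CDPs, 5 of 12 by the test. Their part in the Tlr4 difference was not tested. Tnfrsf13c, which encodes the BAFF receptor of the non-canonical branch, was 6.40, 6.41 and 6.32 in Zeb2hi CDPs, 7.84, 7.87 and 7.76 in Zeb2low CDPs and 7.42 and 7.78 in pre-CD8 DCs. It rose in Zeb2low CDPs (1.45 ± 0.14, adjusted p of 0.00112) and stood higher in pre-CD8 DCs than in Zeb2hi CDPs as well (1.22 ± 0.16, adjusted p of 0.00209). Of 5 B cell genes tested, Cd79a and Cd22 were higher and Cd79b was lower in both of these comparisons, and the summed log2 signal of the 5 was 26.7 to 28.9 in Zeb2hi CDPs, 30.1 to 32.02 in Zeb2low CDPs and 29.2 to 29.4 in pre-CD8 DCs. The part of B cell transcripts in the Tnfrsf13c difference was not tested. Between Zeb2low and Zeb2hi CDPs 4 of 12 receptors were higher and 0 lower, against 4.5% of all genes higher and 10.3% lower. Il18r1, the receptor of IL-18, was among them (1.76 ± 0.26, limma adjusted p of 0.00552). On Zeb2hi arrays 1 and 3 its signal lay below the array's own 40th percentile. The summed log2 signal of the 4 T, NK and innate lymphoid genes was 22.4 to 23.4 in Zeb2hi CDPs, 27.0 to 28.5 in Zeb2low CDPs and 26.2 to 26.5 in pre-CD8 DCs, with Thy1 2.22 ± 0.14 higher in Zeb2low than in Zeb2hi CDPs (adjusted p of 0.00018). The part of lymphoid transcripts in the Il18r1 difference was not tested. The Tnfrsf13c, Tlr3 and Il18r1 calls printed here, and that of Tlr4, held in all 8 fits without an array.

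The ligand list had 9 genes, of which 5 were tested. In pre-CD8 DCs 2 of 5 were higher than in Zeb2hi CDPs and 0 lower, against 6.51% of all genes higher and 11.1% lower. Against Zeb2hi CDPs, Il1b, an inflammatory cytokine gene (3.73 ± 0.94, adjusted p of 0.0268), and Tnfsf13b, which encodes BAFF (1.60 ± 0.46, adjusted p of 0.0443), were higher in pre-CD8 DCs in limma. The mature neutrophil genes, whose sums are given above, were also higher there, 5 of 12 by the test, and their part in the ligand calls was not tested. The Il1b call ended when Zeb2hi array 1 (adjusted p of 0.0693), Zeb2hi array 3 (adjusted p of 0.0819) or pre-CD8 DC array 1 (adjusted p of 0.166) was omitted, and under 3 of 11 other settings. The Tnfsf13b call ended when Zeb2hi array 1 (adjusted p of 0.0854), Zeb2hi array 2 (adjusted p of 0.0963), Zeb2hi array 3 (adjusted p of 0.122) or Zeb2low array 3 (adjusted p of 0.0629) was omitted, and under 6 of 10 other settings. Tnfsf13b read 6.26 and 4.89 on pre-CD8 DC arrays 1 and 2. Without pre-CD8 DC array 1, which leaves only the other array of that group, its difference fell from 1.60 to 0.92, and the call did not hold there either. The signal of Tnfsf13b was low in Zeb2hi CDPs, below the array's own 40th percentile on all 3 arrays. With a pseudocount of 16 its difference between pre-CD8 DCs and Zeb2hi CDPs was 1.04 (limma adjusted p of 0.0771). In the other comparisons 0 of 5 passed, with 3 at an unadjusted p below 0.05 between the CDP groups and 0 between Zeb2low CDPs and pre-CD8 DCs. With the CDP arrays paired, 3 of 5 were higher in Zeb2low than in Zeb2hi CDPs, where 30.5% of all genes were called in either direction. Ltb, which encodes lymphotoxin beta (1.28, limma adjusted p of 0.00479), and Tnfsf13b (1.40, adjusted p of 0.0094) were among them.

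Among kinases 10 of 11 genes were tested. In pre-CD8 DCs 1 was higher and 1 lower than in Zeb2hi CDPs, against 6.51% of all genes higher and 11.1% lower. Map3k8, which encodes the kinase TPL2 that is bound by the Nfkb1 precursor, had 5.76, 5.47 and 5.53 on the Zeb2hi arrays, 6.02, 6.27 and 6.29 on the Zeb2low arrays and 6.66 and 6.91 on the pre-CD8 DC arrays, with no overlap between any groups. It was 2.29-fold higher in pre-CD8 DCs than in Zeb2hi CDPs (1.20 ± 0.17, limma adjusted p of 0.00291), a call that held in all 8 fits without an array. Its rise from Zeb2hi to Zeb2low CDPs (0.61 ± 0.15, adjusted p of 0.0315) did not pass when Zeb2hi array 2 (adjusted p of 0.128), Zeb2hi array 3 (adjusted p of 0.117), Zeb2low array 2 (adjusted p of 0.0955) or Zeb2low array 3 (adjusted p of 0.0962) was omitted, nor with arrays centred on their medians (adjusted p of 0.0678). Ikbke, an IkB kinase relative of the interferon pathway, was lower in pre-CD8 DCs than in Zeb2hi CDPs (-0.71 ± 0.16, adjusted p of 0.0204), a call that ended when Zeb2hi array 2 (adjusted p of 0.0562), Zeb2hi array 3 (adjusted p of 0.0777) or pre-CD8 DC array 2 (adjusted p of 0.0981) was omitted. Map3k14, which encodes NIK, differed by 0.56 ± 0.21 between pre-CD8 DCs and Zeb2low CDPs (adjusted p of 0.31), and 0 of 10 kinases passed in that comparison, with 2 at an unadjusted p below 0.05.

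Of 21 adaptor and ubiquitin ligase genes 16 were tested. In pre-CD8 DCs 3 of 16 were higher than in Zeb2hi CDPs and 0 lower, against 6.51% of all genes higher and 11.1% lower. Traf5, an adaptor of tumour necrosis factor receptors, had 5.24, 5.46 and 5.21 on the Zeb2hi arrays, 6.01, 6.08 and 6.11 on the Zeb2low arrays and 6.69 and 6.64 on the pre-CD8 DC arrays, so that the 3 groups did not overlap. It was 2.58-fold higher in pre-CD8 DCs than in Zeb2hi CDPs (1.37 ± 0.15, limma adjusted p of 0.000932), in all 8 fits without an array. It rose from Zeb2hi to Zeb2low CDPs (0.77 ± 0.13, adjusted p of 0.00904), a call that ended when Zeb2hi array 3 was omitted (adjusted p of 0.0507). Irak2 and Ticam1, adaptors of Toll-like receptor signalling, were the other 2 genes called in pre-CD8 DCs over Zeb2hi CDPs, and their calls held in only 1 and 2 of 8 fits without an array, with adjusted p up to 0.239 (without pre-CD8 DC array 1) and up to 0.225 (without pre-CD8 DC array 2), and ended under 7 and 6 of 11 other settings.

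The inhibitors comprise the IkB proteins, which retain NF-kappaB dimers, and enzymes and binding proteins that end signalling. Of 6 IkB genes, all tested, 0 passed limma's unpaired test in any comparison, and the count at an unadjusted p below 0.05 was 2 in pre-CD8 DCs over Zeb2hi CDPs and 0 in the others. All 6 had positive differences between pre-CD8 DCs and Zeb2hi CDPs, with a median of 0.76, where 17.6% of all genes were called. Nfkbia, which encodes IkB alpha, had 7.09, 8.32 and 8.98 on the Zeb2hi arrays, 7.98, 9.28 and 9.32 on the Zeb2low arrays and 9.41 and 9.51 on the pre-CD8 DC arrays. The pre-CD8 DC arrays lay above all others, but the CDP arrays were spread widely, and the difference from Zeb2hi CDPs was 1.33 ± 0.55 (adjusted p of 0.134). With the CDP arrays paired, Nfkbia rose from Zeb2hi to Zeb2low CDPs (0.73, adjusted p of 0.0162). Bcl3, which encodes a nuclear IkB protein, differed by 1.05 ± 0.33 (adjusted p of 0.062) between pre-CD8 DCs and Zeb2hi CDPs and passed in 2 of 8 fits without an array. Of 7 feedback inhibitors tested, Otulin, a deubiquitinase of linear chains, was lower in Zeb2low than in Zeb2hi CDPs (-1.35 ± 0.25, adjusted p of 0.0118), and the call ended when Zeb2hi array 2 was omitted (adjusted p of 0.0507). Tnfaip3, which encodes the deubiquitinase A20, differed by 1.07 ± 0.36 between pre-CD8 DCs and Zeb2hi CDPs (adjusted p of 0.0772).

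Among 21 tested genes of a list of NF-kappaB targets, 5 were higher and 1 lower in pre-CD8 DCs than in Zeb2hi CDPs. Of all genes 6.51% were higher and 11.1% lower there. Cd86, a costimulatory ligand gene, had 4.16, 3.94 and 4.51 on the Zeb2hi arrays, 5.97, 5.24 and 5.59 on the Zeb2low arrays and 7.005 and 7.24 on the pre-CD8 DC arrays, with no overlap between groups. It differed by 2.92 ± 0.25 between pre-CD8 DCs and Zeb2hi CDPs (limma adjusted p of 0.000283). Cd83, a DC maturation marker, had 4.10, 4.08 and 4.64 on the Zeb2hi arrays, 4.22, 4.75 and 4.99 on the Zeb2low arrays and 6.81 and 6.22 on the pre-CD8 DC arrays. The CDP groups overlapped for Cd83 and pre-CD8 DCs stood above both (2.24 ± 0.29 over Zeb2hi CDPs, adjusted p of 0.002). The Cd86 and Cd83 calls over Zeb2hi CDPs held in all 8 fits without an array. On Zeb2hi arrays 1 and 2 both genes lay below the array's own 40th percentile, so these differences start from a low signal. Slfn2, a Schlafen family gene, had 8.04, 7.99 and 7.77 on the Zeb2hi arrays, 8.37, 10.01 and 9.35 on the Zeb2low arrays and 10.58 and 9.85 on the pre-CD8 DC arrays. It was higher in pre-CD8 DCs than in Zeb2hi CDPs (2.28 ± 0.42, adjusted p of 0.00789), a call that ended when pre-CD8 DC array 1 was omitted (adjusted p of 0.0578). Between the CDP groups, Zeb2low CDPs had 3 of 21 targets higher and 0 lower, against 4.5% of all genes higher and 10.3% lower. Pairing the arrays gave 7 higher and 2 lower, where 30.5% of all genes were called. Of the 3, Cd86 (1.40 ± 0.22, adjusted p of 0.00656) passed in all 8 fits without an array. Ccl5, a chemokine gene (2.00 ± 0.52, adjusted p of 0.0361), and Slfn2 (1.31 ± 0.37, adjusted p of 0.0485) each passed in 3 of 8, and ended when any one of Zeb2hi arrays 1, 2 and 3 or Zeb2low arrays 2 and 3 was omitted, with adjusted p up to 0.122 for Ccl5 and up to 0.151 for Slfn2, both without Zeb2hi array 3. They also ended with arrays centred on their medians (adjusted p of 0.0504 for Ccl5 and 0.0775 for Slfn2). Mature neutrophil genes were higher in Zeb2low CDPs (4 of 12) and in pre-CD8 DCs (5 of 12) than in Zeb2hi CDPs. Their part in the Slfn2 and Ccl5 calls was not tested. Cd83 (1.86 ± 0.29, adjusted p of 0.0338) and Cd86 (1.53 ± 0.25, adjusted p of 0.0393) were also the 2 targets higher in pre-CD8 DCs than in Zeb2low CDPs, but each passed in only 1 of 8 fits without an array, with adjusted p up to 0.22 and 0.182, both without pre-CD8 DC array 1; Cd83 passed without pre-CD8 DC array 2 (adjusted p of 0.0449) and Cd86 without Zeb2low array 1 (adjusted p of 0.0295). Sod2, the mitochondrial superoxide dismutase gene, was lower in pre-CD8 DCs than in Zeb2hi CDPs (-0.82 ± 0.18, adjusted p of 0.0155), a call that ended when Zeb2hi array 3 (adjusted p of 0.0554) or pre-CD8 DC array 1 (adjusted p of 0.0857) was omitted, and under 2 of 11 other settings.

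**Figure D5:**
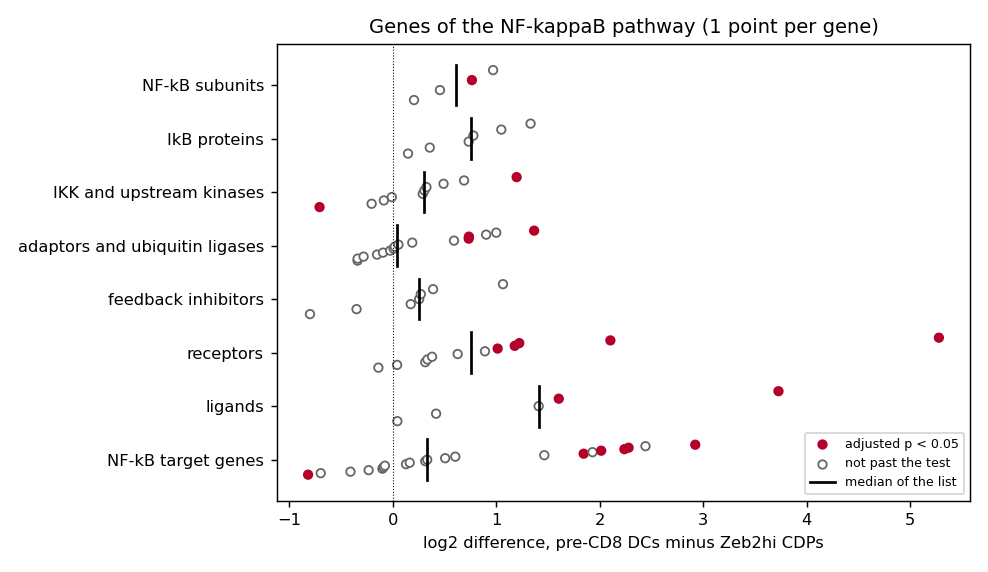
Log2 difference between pre-CD8 DCs and Zeb2hi CDPs (horizontal axis) of each tested gene of the NF-kappaB pathway, by role; filled points have adjusted p below 0.05 and the bar is the median of the list. Calls lie mostly to the right of 0, with Tlr3 farthest at 5.28, and Ikbke and Sod2 are the calls to the left.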

How the data were processed

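RNA of cells sorted from bone marrow was amplified and put on Affymetrix arrays, as the labels' protocols say. The authors deposited 1 linear intensity per probe set, made with RMA in Expression Console by the submitters' processing notes, which name no versions. RMA gives no detection call. Of 28853 probe sets, 21789 have exactly 1 gene in the annotation, and the rest were left out. Intensities were turned into log2 values. A probe set entered if 2 or more arrays exceeded their 40th percentile, and the probe set with the highest mean stood for its gene. Groups came from sample titles and were compared with limma 3.58.1 in R 4.3.3 over all 8 arrays (5 residual degrees of freedom, Benjamini-Hochberg threshold 0.05), tested on simulated data. Values after ± are standard errors of the fit unless marked SD. Nothing says that arrays of a group came from separate mice, so p-values reflect only the spread among these samples, which may be technical, and the number of arrays limits precision. Arrays of the CDP groups with the same replicate number shared deviations (r = 0.478, 0.407 and 0.308), so the numbers were taken to pair them; this rests on the values, as no label explains the numbers. Named genes were the members and, per list and comparison, up to 3 called genes per direction with the largest difference, or the 2 of smallest p where none passed. Members and lists were chosen with earlier results of these data known. Filters, scaling, weights, the pairing and each array were varied as alternatives.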

Additional observations from a re-analysis of the deposited data

How the results depend on the processing

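The sign held for Relb and Nfkb2 in all 3 comparisons, and for Rel against pre-CD8 DCs, under every alternative that gave a value. Between the CDP groups Rel turned to 0.15 after quantile normalization (-0.21 to 0.0803 without 1 array) and Rela to -0.0480 with centred arrays (-0.0880 to 0.30 without 1 array). For pre-CD8 DCs over Zeb2low CDPs Rela turned to -0.00499 after quantile normalization, -0.0595 with array weights and -0.24 without both first arrays of these groups (-0.10 to 0.29 without 1 array); Bcl3 (-0.0896) and Otulin (-0.0240) turned in that last fit. For pre-CD8 DCs over Zeb2hi CDPs, Relb gave 0.67 to 0.90 without 1 array and 0.80 without both first arrays, where its call ended (adjusted p of 0.0520 in limma), so that members called were 0 there, 0 under the stricter filter and 0 to 1 without 1 array. The adjusted p of the Relb F test was 0.0930 after quantile normalization, 0.0732 with centring, 0.0595 with a pseudocount of 16, 0.0681 without both first arrays and 0.0398 to 0.154 without 1 array. With the replicate block over the CDP arrays, Nfkb2 passed between them (0.44) and members called were 1, where 30.5% of all genes were called. The pre-CD8 DC numbers did not pair with the CDP numbers (r from -0.587 to -0.172). A replicate block over all arrays gave Nfkb2 1.15 in pre-CD8 DCs over Zeb2hi CDPs and an F test at an adjusted p of 0.0282. In that comparison 2 members were called, where 1593 of 13356 genes were. Genes called between the CDP groups went from 1978 to 4467 with array weights and 4070 with the CDP block, and to 532 to 2222 without 1 array. Genes called between pre-CD8 DCs and Zeb2low CDPs went from 74 to 16 with these 2 groups alone, 15 with the block over all arrays, 41 without both first arrays and 20 to 117 without 1 array. Those between pre-CD8 DCs and Zeb2hi CDPs went from 2352 to 1173 to 2779 without 1 array, and those called higher from 869 to 464 to 1046. Of the calls between the CDP groups 30.4% were higher, against 40.9% after quantile normalization, 40.3% with weights and 14.2% with centring, which moved the median difference of all genes from 0.0260 to -0.137. For pre-CD8 DCs over Zeb2low CDPs 60.8% were higher (72.3% with centring). The cause of these changes was not tested. The small number of arrays limits all of them, and Relb lies near the low end of the signal range.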

Other observations

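Matches to the kappaB consensus were also counted in the promoter windows of the other pathway genes, with any of a gene's starts. Of 73 genes with a window 23 held a match (31.5%), against 9.55% of 26994 genes in all. The IkB genes held matches in 4 of 5 (Nfkbia, Nfkbie, Nfkbid and Bcl3) and the feedback inhibitors in 4 of 7 (Tnfaip3, Tnip1, Tnip3 and Cyld). The target list held 7 of 17, among them Sod2, Cxcl2 and Irf1, the receptors 3 of 11 (Il1r1, Tlr2 and Tlr3), the adaptors 3 of 17, the kinases 1 of 8 and the ligands 1 of 8. Of the pathway genes called in pre-CD8 DCs against Zeb2hi CDPs and named above, Tlr3 and Sod2 held a match, with Tlr3 higher and Sod2 lower. The rest held no match or had no window: Map3k8, Ikbke, Traf5, Irak2, Ticam1, Tlr4, Tnfrsf13c, Il1b, Tnfsf13b, Cd86, Cd83 and Slfn2. The lists were written from known biology of this pathway and with earlier results of these data known. The counts are therefore a description of these genes and not a test.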
